A study of Mus musculus with 12 samples.

Results

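Integrin subunits and laminin chains were followed in the liver RNA of 12 male C57BL/6J mice. The genes were taken from rows of the count table whose mouse gene symbol is an integrin alpha or beta subunit (Itga or Itgb with a number, and Itgal, Itgam, Itgad, Itgae and Itgav) or a laminin alpha, beta or gamma chain (Lama, Lamb or Lamc with a number). Itgax was left out by this rule. The 36 genes described are 26 integrin subunits and 10 laminin chains, among 55357 rows, of which 30104 held a count. All 36 had counts and all 36 passed the filter on low counts. By textbook class, 8 are leukocyte integrin subunits, 2 form the platelet integrin and 26 belong to epithelium, matrix-producing cells or many cell types. The 4 groups were WT mice on chow (WT chow, n = 4), WT mice on CDAHFD (WT CDAHFD, n = 3), KO mice on chow (KO chow, n = 2) and KO mice on CDAHFD (KO CDAHFD, n = 3). All of these mice carried the floxed PPARa alleles (PPARa fl/fl). KO mice also carried an Albumin-driven Cre transgene (AlbuminCre Tg/+), which deletes the gene in hepatocytes, while WT mice are labelled AlbuminCre+/+, and other liver cells keep the receptor in both genotypes. CDAHFD is a choline-deficient, amino acid-defined high-fat diet that produces steatohepatitis with fibrosis. Diets ran for 6 weeks, from 7 to 13 weeks of age.

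Integrins are receptors made of an alpha and a beta subunit that hold cells to matrix or to other cells. The alpha subunit largely sets what is bound, and the beta subunit links the receptor to talin, kindlin and actin inside the cell. The beta 2 and beta 7 integrins belong to leukocytes and carry them onto endothelium and into tissue. Others bind collagen, laminin, or the RGD sequence of fibronectin, vitronectin and the latent TGF-beta complex. Laminins are trimers of an alpha, a beta and a gamma chain and are the main laminin-receptor ligands of basement membranes. In liver, a continuous basement membrane surrounds bile ducts and larger vessels, whereas the sinusoids beside hepatocytes have a sparse one.

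RefSeq promoter windows (GRCm38.p6) were matched for 23 of the 36 genes. Those of 4 leukocyte subunits are shown because these genes did not all move one way: Itgam, Itga4 and Itgb7 rose in each of the 3 comparisons with WT chow, and Itgb2l was lower in 2 of them. Each run gives the 250 bases before the transcription start, read 5′ to 3′ on the gene's strand. Capitals mark GAGGAA or its reverse complement TTCCTC, the purine-rich core recognised by PU.1, an ETS-family factor of myeloid cells.
Itgam (chr7:128062390-128062639, plus strand): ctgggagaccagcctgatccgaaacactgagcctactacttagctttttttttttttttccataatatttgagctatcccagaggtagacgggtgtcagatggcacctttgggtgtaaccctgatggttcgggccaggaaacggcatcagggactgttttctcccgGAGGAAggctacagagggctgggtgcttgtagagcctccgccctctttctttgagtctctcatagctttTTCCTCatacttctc
Itga4 (chr2:79255176-79255425, plus strand): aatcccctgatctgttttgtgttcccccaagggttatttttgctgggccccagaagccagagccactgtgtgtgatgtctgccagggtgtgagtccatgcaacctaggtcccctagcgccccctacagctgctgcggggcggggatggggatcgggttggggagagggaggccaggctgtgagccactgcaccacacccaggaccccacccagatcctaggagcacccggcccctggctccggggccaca
Itgb7 (chr15:102231936-102232185, minus strand): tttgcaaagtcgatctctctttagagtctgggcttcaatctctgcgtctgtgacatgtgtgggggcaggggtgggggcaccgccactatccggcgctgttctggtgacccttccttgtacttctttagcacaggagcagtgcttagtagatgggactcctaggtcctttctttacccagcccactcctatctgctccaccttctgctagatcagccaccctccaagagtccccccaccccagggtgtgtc
Itgb2l (chr16:96443615-96443864, minus strand): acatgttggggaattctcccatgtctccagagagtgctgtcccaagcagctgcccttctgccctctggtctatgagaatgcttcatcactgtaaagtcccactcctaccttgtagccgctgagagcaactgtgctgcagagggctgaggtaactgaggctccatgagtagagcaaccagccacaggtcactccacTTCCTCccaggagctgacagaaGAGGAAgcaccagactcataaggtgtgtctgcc
The Itgam window held 2 matches, ending 79 bases before the start on the forward strand and 10 bases before it on the reverse strand. The Itgb2l window also held 2, at 50 bases on the reverse and 28 bases on the forward strand. The Itga4 and Itgb7 windows held none of these letters. Over all 32851 windows of the same length, 23.3% held at least 1 match, and 14 of the 26 windows of the 23 matched genes did (53.8%). The difference between these shares was not tested. A match is a run of letters and not a measured binding site.

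The libraries held 29906785 to 43551003 counts (median 36989922). Levels are given as CPM, counts per 1000000 counts of library size scaled by the trimmed mean of M values (TMM). Ppara, the targeted gene, lay at 120.1, 96.2, 238 and 226 CPM in WT chow, 59.5, 75.5 and 73.5 in WT CDAHFD, 14.4 and 38.7 in KO chow and 36.3, 20.7 and 51.9 in KO CDAHFD, so that every KO library was below every WT library. Changes are log2 fold changes ± SE from edgeR's quasi-likelihood test over 17358 genes, called at a Benjamini-Hochberg adjusted p under 0.05. TMM factors were lowest in WT chow, and without them the median of all genes moved from about 0 to 0.404 for KO chow, 0.51 for WT CDAHFD and 0.571 for KO CDAHFD against WT chow. The share of called genes that were higher then went from 56.4% to 86% for KO chow, from 51% to 88.6% for WT CDAHFD and from 51.4% to 89.9% for KO CDAHFD. The changes below are therefore relative to the other genes of a library. The 4 libraries WT chow 3 and 4, KO chow 2 and KO CDAHFD 3 had over 20 CPM of the clock gene Dbp (44.8 to 130.3 CPM, beside 0.388 to 3.75 in the others), and results that rest on them are also given without them. The fit without them keeps 1 KO chow library and 2 of WT chow, so fewer libraries and clock state cannot be told apart there. Of 9 evening-phase clock genes, KO chow had 1 lower than WT chow, WT CDAHFD had 2 and KO CDAHFD had 1, and of 3 morning-phase genes the counts were 1, 0 and 1. Over all genes tested, 17%, 25% and 25.4% were lower (39%, 51.1% and 52.4% called in either direction). The evening-phase genes summed to 110 to 880 CPM in WT chow and 137 to 201 in WT CDAHFD, so few calls do not show like clock states. Haemoglobin transcripts summed to 104 to 266 CPM in WT chow, 68.8 to 84.4 in WT CDAHFD, 160.3 to 370.5 in KO chow and 93.8 to 127 in KO CDAHFD, and the Y-linked and Xist list to 198 to 272 CPM in WT chow, 157 to 164 in WT CDAHFD, 147 to 187 in KO chow and 136 to 138 in KO CDAHFD.

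Most integrin and laminin genes were higher than WT chow in all of the other groups. In KO chow, 21 of the 36 were higher and 3 lower, where 39% of all genes tested were called (22% higher and 17% lower). In WT CDAHFD 24 were higher and 3 lower, against a background of 51.1% called (26.1% higher and 25% lower). KO CDAHFD had 26 higher and 2 lower, with 52.4% of all genes called (26.9% higher and 25.4% lower). These shares are also the background for the counts against WT chow given below for classes, ligands and markers. The median log2 fold change of the 36 genes was 0.89 for KO chow, 1.21 for WT CDAHFD and 1.42 for KO CDAHFD, beside 0.00217, -0.0478 and -0.0397 over all genes. By gene, 21 were higher in all 3 comparisons, 5 in 1 or 2 of them, 2 were lower in all 3 (Itga7 and Lama3), 1 was lower in 2 (Itgb2l) and 7 were called in none. The share of all genes with such joint calls was not computed, so these joint counts have no background. Not all of the 21 held up without a KO chow library. The KO chow calls of Itga3, Itga4, Itga9, Itgav, Itgb4, Itgb6, Lama5, Lamb2 and Lamc3 were each lost in such a fit, as given below. The libraries did not overlap with those of WT chow for 27 of the 36 genes in KO chow (50.2% of all genes), 28 in WT CDAHFD (55.4%) and 29 in KO CDAHFD (51.5%). The 3 comparisons share the WT chow libraries, so they are not independent of each other. Without the 4 libraries high in Dbp, 20, 29 and 28 of the 36 were called, beside 30.3%, 48.7% and 42.9% of all genes. With library size alone as the scaling, 29 were higher and 2 lower in KO chow, 31 and 1 in WT CDAHFD, and 30 and 1 in KO CDAHFD, where 47.2%, 59.1% and 62.6% of all genes were called.

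**Figure D1:**
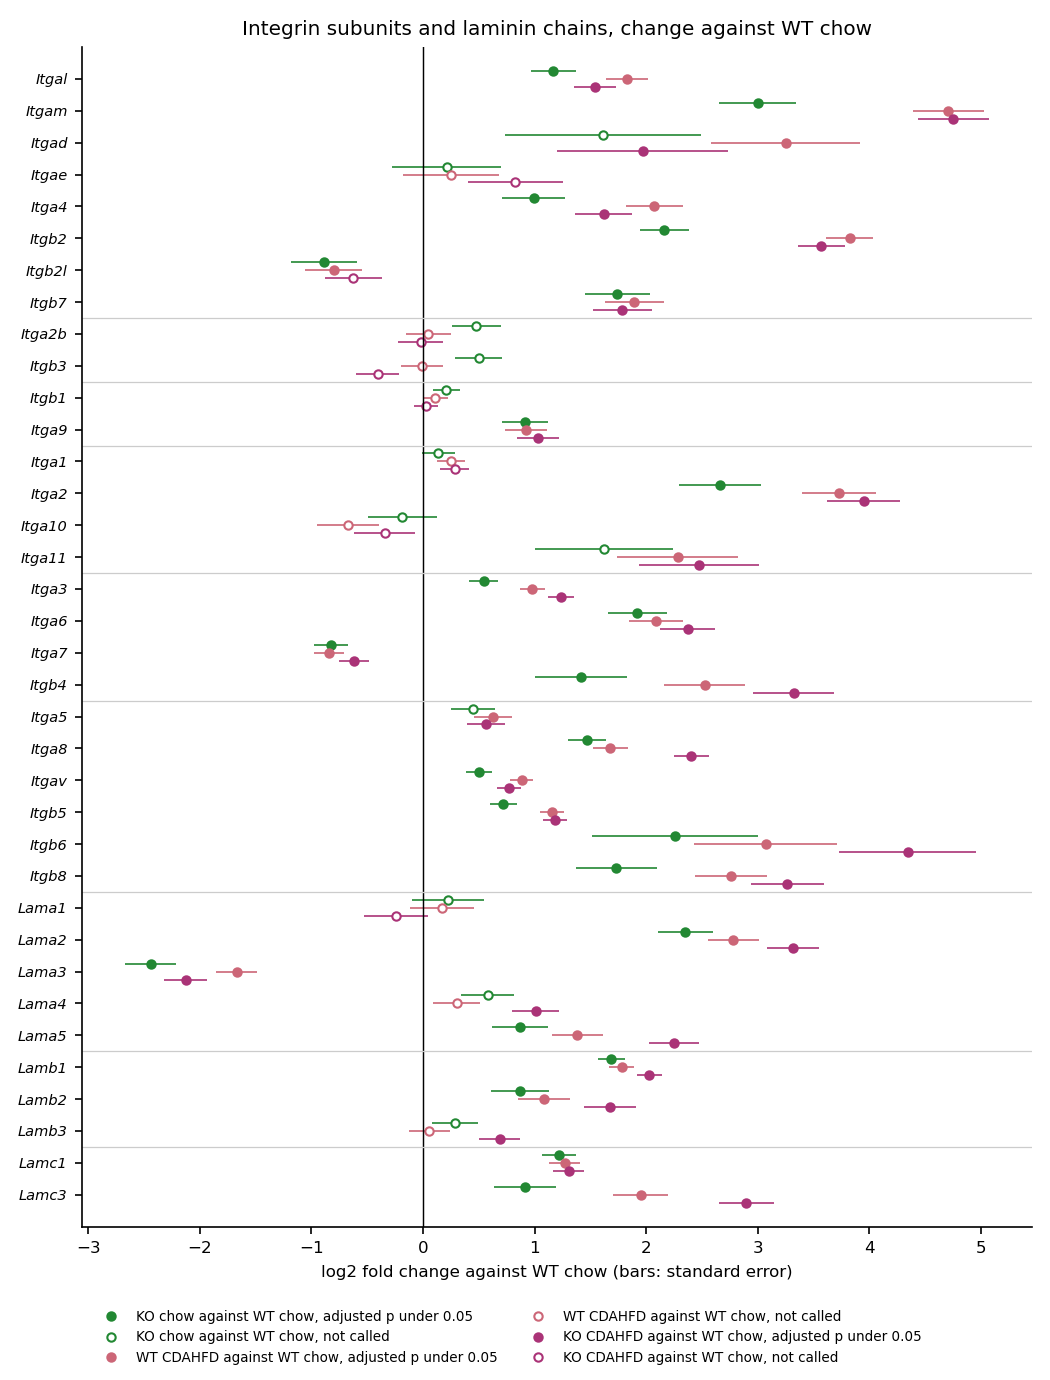
Log2 fold change against WT chow (x axis; bars show the SE) of the 36 genes, grouped by class with grey lines, in KO chow (n = 2), WT CDAHFD (n = 3) and KO CDAHFD (n = 3) against WT chow (n = 4). Filled points passed an adjusted p of 0.05. Itgam reached 4.75 in KO CDAHFD, Lama3 lay at -2.44 in KO chow, and Itgb1 stayed between 0.03 and 0.21.

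Most leukocyte integrin subunits were higher than in WT chow, and the myeloid subunit Itgam showed the largest log2 fold change of the 36 genes in all 3 comparisons. Of the 8, KO chow had 5 higher and 1 lower, WT CDAHFD had 6 higher and 1 lower, and KO CDAHFD had 6 higher, with median log2 fold changes of 1.39, 1.98 and 1.70. Itgam (chr7:128062640-128118491, plus strand) encodes alpha M, which with beta 2 forms the complement receptor Mac-1 of macrophages and neutrophils. It was counted at 0.815, 0.189, 0.500 and 0.367 CPM in WT chow, 13, 14.1 and 9.33 in WT CDAHFD, 4.11 and 3.32 in KO chow and 11.4, 15 and 11.1 in KO CDAHFD. Each of the other groups lay above all 4 WT chow libraries, and KO chow lay between WT chow and both CDAHFD groups. Against WT chow, Itgam rose by 3.0 ± 0.35 for KO chow, 4.71 ± 0.32 for WT CDAHFD and 4.75 ± 0.32 for KO CDAHFD on the log2 scale (adjusted p = 2.54e-05, 1.67e-07 and 1.46e-07).

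Itgb2 (chr10:77530252-77565708, plus strand) encodes beta 2 (CD18), the partner of alpha L, alpha M and alpha D. Its level was 12.5, 7.71, 12.1 and 6.97 CPM in WT chow, 155, 144 and 119 in WT CDAHFD, 37.8 and 50.3 in KO chow and 119, 101 and 129.7 in KO CDAHFD. KO chow again lay above WT chow and below both CDAHFD groups, with no overlap. Against WT chow it rose by 2.16 ± 0.22 for KO chow, 3.82 ± 0.21 for WT CDAHFD and 3.57 ± 0.21 for KO CDAHFD on the log2 scale (adjusted p = 9.14e-06, 4.15e-08 and 6.16e-08). Itgal encodes alpha L of LFA-1, the ICAM receptor found on most leukocytes. Its libraries gave 22.4, 14.5, 21.1 and 11.9 CPM in WT chow, 64.1, 64.0 and 58.5 in WT CDAHFD, 35.7 and 43 in KO chow and 54.0, 45.7 and 53.1 in KO CDAHFD. All 8 libraries outside WT chow exceeded the highest WT chow library, with log2 fold changes of 1.17 ± 0.20 for KO chow, 1.83 ± 0.19 for WT CDAHFD and 1.54 ± 0.19 for KO CDAHFD (adjusted p = 0.000636, 4.67e-06 and 1.81e-05). Itgal therefore rose less than its partner: per kilobase of exon, the Itgal level was 0.792 to 0.874 times that of Itgb2 in WT chow, 0.192 to 0.229 in WT CDAHFD, 0.398 to 0.439 in KO chow, and 0.190 to 0.211 for the KO CDAHFD group. This ratio is formed within a library and does not depend on the scaling. Itgad, the beta 2 partner with the lowest level per kilobase, held 0 to 0.0630 CPM in WT chow, 0.225 to 0.388 in WT CDAHFD, 0.0816 to 0.0970 in KO chow and 0.0802 to 0.170 in KO CDAHFD, and the 4 WT chow libraries together held 3 counts, so no fold is given. It was called higher in both CDAHFD groups (WT: adjusted p = 0.00143, KO: adjusted p = 0.047), and not in KO chow (adjusted p = 0.168). The KO CDAHFD call rested on few counts and was lost without WT chow 1 or 4, either KO chow library, or KO CDAHFD 1 or 3 (adjusted p up to 0.16). Itgad held 66 counts in all, beside 167 for Cox6a2, which overlaps it on the opposite strand.

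Itgb2l, a beta 2-like subunit described in neutrophils, went the other way. It was measured at 4.43, 4.97, 3.53 and 3.26 CPM in WT chow, 2.07, 2.7 and 2.21 in WT CDAHFD, 1.52 and 2.84 in KO chow and 2.84, 1.95 and 3.09 in KO CDAHFD. The 4 WT chow libraries lay above all others. Its changes were -0.89 ± 0.30 for KO chow, -0.80 ± 0.25 for WT CDAHFD and -0.62 ± 0.25 for KO CDAHFD (adjusted p = 0.0299, 0.0184 and 0.0542), so the KO CDAHFD difference was not called. With library size alone as the scaling, the KO chow value was -0.50 and the WT CDAHFD value -0.25, and neither was called. The KO chow call was also lost without KO chow 1 (-0.50), WT chow 1 (-0.83) or WT chow 2 (-0.76). The WT CDAHFD call was lost without WT chow 2 (-0.66), WT CDAHFD 1 (-0.72) or WT CDAHFD 3 (-0.76).

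Of the lymphocyte homing subunits, Itga4 and Itgb7 rose. Itga4 encodes alpha 4, which pairs with beta 1 or beta 7 to bind VCAM-1 and MAdCAM-1. Its values were 6.02, 5.60, 4.57 and 3.30 CPM in WT chow, 20.9, 22.5 and 18.3 in WT CDAHFD, 7.12 and 12.3 in KO chow and 13.8, 10.8 and 20.4 in KO CDAHFD. Every other library exceeded WT chow, with log2 fold changes of 0.99 ± 0.28 for KO chow, 2.07 ± 0.25 for WT CDAHFD and 1.62 ± 0.25 for KO CDAHFD (adjusted p = 0.0141, 2.28e-05 and 0.000162). The KO chow call rested on KO chow 2: without it the value was 0.55 (adjusted p = 0.239), and without the 4 libraries high in Dbp it was 0.30 (adjusted p = 0.31). The libraries are not strand-specific, and Cerkl, which overlaps Itga4 on the opposite strand, held 10.6% as many counts. Itgb7 encodes beta 7, the partner of alpha 4 and alpha E on gut-homing and intraepithelial lymphocytes. It gave 1.67, 1.26, 2.13 and 0.734 CPM in WT chow, 5.76, 5.34 and 5.27 in WT CDAHFD, 5.71 and 4.10 in KO chow and 5.26, 4.28 and 5.64 in KO CDAHFD. The groups did not overlap with WT chow, and the rises of 1.74 ± 0.29 for KO chow, 1.89 ± 0.27 for WT CDAHFD and 1.79 ± 0.27 for KO CDAHFD were of similar size (adjusted p = 0.000476, 7.33e-05 and 0.000115). Itgae, the alpha E subunit that binds E-cadherin, lay at 0.413 to 1.51 CPM in WT chow, 0.758 to 1.05 in WT CDAHFD, 0.655 to 1.06 in KO chow and 0.970 to 1.76 in KO CDAHFD and was called in no comparison.

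**Figure D2:**
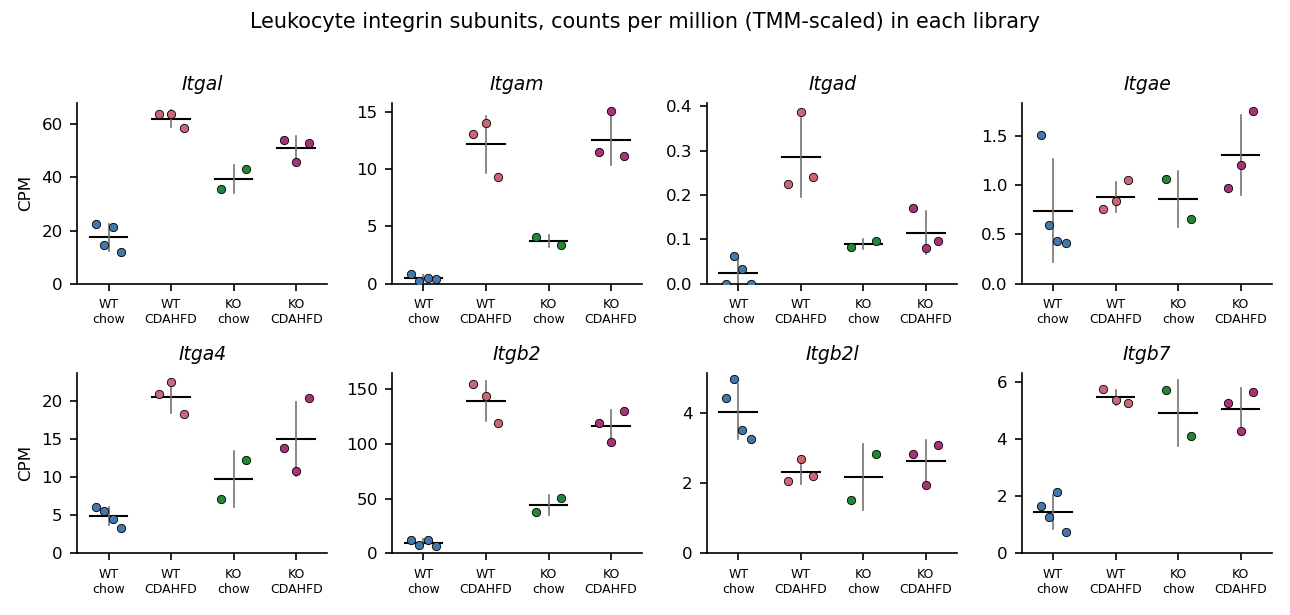
CPM (y axis, linear from 0) of the 8 leukocyte integrin subunits by group (x axis). Each point is 1 library, the horizontal line is the group mean and the vertical line the SD. Itgb2 in WT chow lay at 6.97 to 12.5 CPM and in WT CDAHFD at 119 to 155, and Itgb2l is the subunit whose WT chow libraries lie above all others.

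Markers of leukocytes moved with these subunits. The 5 pan-leukocyte markers (Ptprc, Cd52, Cd53, Coro1a and Laptm5) were all higher in the 3 comparisons, and their summed level was 42.6 to 76.1 CPM in WT chow, 300.4 to 358 in WT CDAHFD, 212 in both KO chow libraries and 293 to 316 in KO CDAHFD. The 7 macrophage markers, 6 of which were higher in each comparison, summed to 305 to 553 CPM in WT chow, 1451 to 1968 in WT CDAHFD, 1072 to 1107 in KO chow and 1442 to 1593 in KO CDAHFD. Lyz2 held the most counts in this sum (278808, beside 63742 for C1qb). The 5 neutrophil markers, of which 4 were tested (3, 3 and 4 higher) and Ly6g was near 0, summed to 2.80 to 13.9 CPM in WT chow, 24.0 to 26.9 in WT CDAHFD, 20.8 to 31.2 in KO chow and 21.8 to 27.2 in KO CDAHFD, and the 6 T and NK cell markers (5, 4 and 4 higher) to 2.41 to 3.13 CPM in WT chow, 6.39 to 7.36 in WT CDAHFD, 6.23 to 9.87 in KO chow and 5.43 to 6.95 in KO CDAHFD. In bulk tissue, more cells of a type and more RNA per cell cannot be told apart, here and in the results below. Relative to the pan-leukocyte sum, the 8 integrin subunits together stood at 0.632 to 0.693 in WT chow, 0.712 to 0.743 in WT CDAHFD, 0.440 to 0.550 in KO chow, and 0.612 to 0.768 for the KO CDAHFD group. The subunits differed in this ratio. Itgal stood at 0.279 to 0.313 in WT chow, 0.179 to 0.195 in WT CDAHFD, 0.169 to 0.203 in KO chow, and 0.155 to 0.181 for the KO CDAHFD group. Itgb2 stood at 0.153 to 0.179 in WT chow, 0.396 to 0.432 in WT CDAHFD, 0.179 to 0.237 in KO chow, and 0.343 to 0.443 for the KO CDAHFD group, so that its KO chow range began within that of WT chow and lay below both CDAHFD groups. Itgam stood at 0.00375 to 0.0107 in WT chow, 0.0311 to 0.0412 in WT CDAHFD, 0.0157 to 0.0194 in KO chow, and 0.0362 to 0.0510 for the KO CDAHFD group, with KO chow between WT chow and the CDAHFD groups. Itga4 stood at 0.0676 to 0.111 in WT chow and 0.0584 to 0.0660 in WT CDAHFD. In KO chow it was 0.0336 to 0.0580 and in KO CDAHFD 0.0367 to 0.0696. Itgb7 stood at 0.0172 to 0.0316 in WT chow and 0.0156 to 0.0175 in WT CDAHFD. Its KO chow range was 0.0193 to 0.0270 and its KO CDAHFD range 0.0145 to 0.0192. For neither Itga4 nor Itgb7 did another group lie above WT chow. The part of leukocyte number in the integrin changes was not tested. With 4 libraries against 3, an exact two-sided permutation test of such a ratio cannot go below 0.0571, so these are given without a test.

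Ligands of leukocyte integrins on endothelium and epithelium were also measured. Of 8 listed ligands (Icam1, Icam2, Icam4, Vcam1, Madcam1, Cdh1, Jam3 and F11r), 6 passed the filter, of which KO chow had 4 higher, WT CDAHFD 4 higher and 1 lower, and KO CDAHFD 5 higher. The 1 that was lower, named after its value was seen, was Icam2. Vcam1, which binds alpha 4 beta 1, averaged 10.6 ± 2.94 CPM (SD) in WT chow and 87.4 ± 5.11 in KO chow, with log2 fold changes of 3.04 ± 0.18 for KO chow, 2.56 ± 0.17 for WT CDAHFD and 2.59 ± 0.17 for KO CDAHFD (adjusted p = 1.84e-07, 1.56e-07 and 1.35e-07). Icam1, the ligand of LFA-1 and Mac-1, changed by 1.28 ± 0.39 for KO chow, 1.48 ± 0.35 for WT CDAHFD and 1.44 ± 0.35 for KO CDAHFD (adjusted p = 0.02, 0.00382 and 0.0042). Jam3, a junctional ligand of Mac-1, reached the threshold in KO CDAHFD only (1.11 ± 0.35, adjusted p = 0.0167), with 0.71 in KO chow and 0.60 in WT CDAHFD, and an antisense gene over it held 17.1% as many counts.

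Of the 4 laminin-binding integrin subunits, 3 were higher in every comparison with WT chow, and Itga7 was lower. Itga6 encodes alpha 6, the receptor subunit of epithelial and endothelial basement membranes. It was counted at 4.12, 2.58, 2.93 and 2.06 CPM in WT chow, 11.6, 15.8 and 9.96 in WT CDAHFD, 10.4 and 11.7 in KO chow and 12.9, 12.7 and 19.9 in KO CDAHFD. WT chow lay below all other libraries, and the KO chow range fell within that of WT CDAHFD. It rose by 1.92 ± 0.26 for KO chow, 2.09 ± 0.24 for WT CDAHFD and 2.37 ± 0.24 for KO CDAHFD (adjusted p = 0.000105, 1.48e-05 and 4.82e-06). Itgb4 encodes beta 4, which pairs only with alpha 6 and anchors epithelial cells in hemidesmosomes. Its level was 1.05, 0.441, 0.567 and 0.275 CPM in WT chow, 3.22, 4.43 and 2.49 in WT CDAHFD, 1.93 and 1.21 in KO chow and 4.53, 5.77 and 7.33 in KO CDAHFD. It stepped up from WT chow through KO chow and WT CDAHFD to KO CDAHFD without overlap between these groups. The rises were 1.42 ± 0.41 for KO chow, 2.52 ± 0.36 for WT CDAHFD and 3.32 ± 0.36 for KO CDAHFD (adjusted p = 0.0159, 8.54e-05 and 7.8e-06), and the KO chow call was lost without KO chow 1 (1.06, adjusted p = 0.17) and without the 4 libraries high in Dbp (1.41, adjusted p = 0.061).

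Itga3 encodes alpha 3, an epithelial laminin receptor. It stood at 9.98, 7.71, 9.94 and 8.81 CPM in WT chow, 18.1, 17.7 and 18.2 in WT CDAHFD, 13.7 and 12.8 in KO chow and 22.3, 19.1 and 22.8 in KO CDAHFD. Its 4 groups followed the same order as Itgb4, again without overlap. Itga3 rose by 0.54 ± 0.13 for KO chow, 0.98 ± 0.12 for WT CDAHFD and 1.23 ± 0.12 for KO CDAHFD (adjusted p = 0.00565, 1.78e-05 and 2.34e-06), and the KO chow call was lost without KO chow 1 (0.51, adjusted p = 0.052). Itga7 encodes alpha 7, the laminin receptor of muscle. It was read at 12.9, 11.2, 13.8 and 12.1 CPM in WT chow, 7.70, 5.79 and 7.43 in WT CDAHFD, 6.85 and 7.25 in KO chow and 8.02, 8.21 and 8.18 in KO CDAHFD. All 4 WT chow libraries exceeded the other 8. The log2 fold changes of -0.83 ± 0.15 for KO chow, -0.84 ± 0.13 for WT CDAHFD and -0.62 ± 0.13 for KO CDAHFD (adjusted p = 0.00107, 0.000195 and 0.00173) kept their sign under library size scaling, where they were -0.42, -0.29 and -0.01, but only the KO chow value was still called. Itga7 shares 9 exon bases with Mettl7b, which held 297081 counts over the 12 libraries.

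Among collagen-binding subunits Itga2 moved most. Itga2 (chr13:114833081-114932100, minus strand) encodes alpha 2, the collagen receptor of platelets, epithelium and fibroblasts. It was low in all libraries, at 0.272, 0.0944, 0.133 and 0.183 CPM in WT chow, 2.38, 1.98 and 2.38 in WT CDAHFD, 1.17 and 0.970 in KO chow and 2.04, 2.38 and 3.43 in KO CDAHFD. No library outside WT chow fell into the WT chow range, and KO chow lay below both CDAHFD groups. Itga2 rose by 2.66 ± 0.37 for KO chow, 3.73 ± 0.33 for WT CDAHFD and 3.95 ± 0.33 for KO CDAHFD (adjusted p = 0.000111, 1.39e-06 and 7.9e-07). Itga11, a collagen receptor of activated fibroblasts, averaged under 50 counts a library and ranged over 0.0333 to 0.311 CPM in WT chow, 0.719 to 0.881 in WT CDAHFD, 0.340 to 0.707 in KO chow and 0.461 to 1.45 in KO CDAHFD. It was called in WT CDAHFD (2.28 ± 0.54, adjusted p = 0.00347) and KO CDAHFD (2.47 ± 0.54, adjusted p = 0.00194). In KO chow it gave 1.62 ± 0.62 (adjusted p = 0.0539), and without the 4 libraries high in Dbp the KO CDAHFD value was 1.56. Itga1, the alpha 1 collagen receptor of sinusoidal and stellate cells, was not called, at 34.4 to 42.3 CPM in WT chow, 44.7 to 49.7 in WT CDAHFD, 35.5 to 51.0 in KO chow and 43 to 52.7 in KO CDAHFD. Its log2 fold changes were 0.14 ± 0.15 for KO chow, 0.25 ± 0.13 for WT CDAHFD and 0.28 ± 0.13 for KO CDAHFD (adjusted p = 0.492, 0.124 and 0.0832), and under library size scaling all 3 passed the threshold, at 0.54, 0.81 and 0.90. Gm49395, which overlaps Itga1 on the same strand, held 6.62% as many counts. Itga10, the cartilage collagen receptor, lay at 1.73 to 3.21 CPM in WT chow, 1.33 to 1.75 in WT CDAHFD, 1.77 to 2.67 in KO chow and 1.52 to 2.66 in KO CDAHFD and was called nowhere.

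Of 6 subunits classed here as RGD-binding, 5 were higher in KO chow and all 6 in WT CDAHFD and in KO CDAHFD. Their median log2 fold changes were 1.09, 1.42 and 1.79. Itgb3, whose product also pairs with alpha v, was classed with the platelet integrin and was not called against WT chow. Itgav encodes alpha v, the common partner of beta 3, 5, 6 and 8. It was found at 39.1, 34.5, 36.2 and 36.6 CPM in WT chow, 67.8, 75.9 and 59.0 in WT CDAHFD, 47.9 and 55.9 in KO chow and 62.7, 58.4 and 66.4 in KO CDAHFD. WT chow was lowest, and KO chow lay below both CDAHFD groups. The rises were 0.50 ± 0.12 for KO chow, 0.88 ± 0.11 for WT CDAHFD and 0.77 ± 0.11 for KO CDAHFD (adjusted p = 0.00494, 1.9e-05 and 5.6e-05), and the KO chow call was lost without KO chow 2 (0.39, adjusted p = 0.067). Itgb5, the vitronectin partner of alpha v, had the second highest level per kilobase of the set, and its libraries stood at 73.0, 81.5, 90.0 and 69.1 CPM in WT chow, 182, 169 and 173 in WT CDAHFD, 134 and 124 in KO chow and 187, 185 and 162 in KO CDAHFD. Its libraries outside WT chow all exceeded the WT chow maximum, and the log2 fold changes were 0.72 ± 0.12 for KO chow, 1.16 ± 0.11 for WT CDAHFD and 1.18 ± 0.11 for KO CDAHFD (adjusted p = 0.00047, 2.24e-06 and 1.74e-06).

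Itgb8, an alpha v partner that presents latent TGF-beta, was counted at 0.893, 0.441, 0.567 and 0.734 CPM in WT chow, 4.06, 6.19 and 2.99 in WT CDAHFD, 2.42 and 1.92 in KO chow and 4.44, 6.02 and 8.37 in KO CDAHFD. KO chow lay between WT chow and the CDAHFD groups, and the rises were 1.73 ± 0.36 for KO chow, 2.76 ± 0.32 for WT CDAHFD and 3.27 ± 0.32 for KO CDAHFD (adjusted p = 0.00231, 1.62e-05 and 3.58e-06). Itgb6, the epithelial alpha v partner that activates latent TGF-beta, averaged under 50 counts and ranged over 0.0333 to 0.194 CPM in WT chow, 0.699 to 0.738 in WT CDAHFD, 0.0970 to 0.734 in KO chow and 1.28 to 2.11 in KO CDAHFD. Against WT chow it gave 2.26 ± 0.74 for KO chow, 3.07 ± 0.64 for WT CDAHFD and 4.34 ± 0.61 for KO CDAHFD (adjusted p = 0.0287, 0.00152 and 7.06e-05). The 2 KO chow libraries were far apart, and without KO chow 1 the KO chow value was 0.24 (adjusted p = 0.874). The call was also lost without WT chow 2 (2.15), WT chow 3 (1.99) or WT chow 4 (2.11). Per kilobase, Itgb6 remained small beside its partner: 0.00139 to 0.00749 of the Itgav level in WT chow and 0.0310 to 0.0547 in KO CDAHFD.

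Itga8 encodes alpha 8, the nephronectin receptor of mesenchymal cells such as stellate cells. It gave 6.83, 7.27, 6.97 and 6.05 CPM in WT chow, 21.5, 22.0 and 21.7 in WT CDAHFD, 19.2 and 18.4 in KO chow and 26.3, 35.8 and 45.8 in KO CDAHFD. Replicates were tight in WT CDAHFD and wide in KO CDAHFD, and each of the 4 groups was separate from the rest. Itga8 rose by 1.47 ± 0.17 for KO chow, 1.68 ± 0.16 for WT CDAHFD and 2.40 ± 0.16 for KO CDAHFD (adjusted p = 2.74e-05, 2.14e-06 and 1.19e-07), and an antisense gene over it held 2.83% as many counts. Itga5, the alpha 5 fibronectin receptor, was measured at 46.2, 46.2, 36.2 and 35.6 CPM in WT chow, 61.7, 63.5 and 64.8 in WT CDAHFD, 66.7 and 45.3 in KO chow and 71.7, 65.5 and 44.9 in KO CDAHFD. It passed the threshold in WT CDAHFD (0.63 ± 0.17, adjusted p = 0.00892) as well as KO CDAHFD (0.56 ± 0.17, adjusted p = 0.0152), where KO CDAHFD 3 lay within the WT chow range. Leaving out KO CDAHFD 1 (0.43) or KO CDAHFD 2 (0.51) ended the KO CDAHFD call. In KO chow the value was 0.45 ± 0.19 (adjusted p = 0.0869).

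Itgb1, the beta 1 subunit shared by most matrix-binding integrins, had the highest level per kilobase of the set and was called in no comparison under TMM scaling. It lay at 225 to 281 CPM in WT chow, 266 to 281 in WT CDAHFD, 279 to 309 in KO chow and 244 to 285 in KO CDAHFD, and its log2 fold changes were 0.21 ± 0.12 for KO chow, 0.11 ± 0.11 for WT CDAHFD and 0.03 ± 0.11 for KO CDAHFD (adjusted p = 0.203, 0.423 and 0.866). Itga9, a beta 1 partner that binds tenascin C and VCAM-1, was measured at 24.3, 22.7, 25.9 and 16.8 CPM in WT chow, 41.6, 46.1 and 39.9 in WT CDAHFD, 35.2 and 49.1 in KO chow and 38.9, 38.6 and 60.0 in KO CDAHFD. Its WT chow libraries lay below all others, with changes of 0.91 ± 0.21 for KO chow, 0.92 ± 0.18 for WT CDAHFD and 1.03 ± 0.19 for KO CDAHFD (adjusted p = 0.00378, 0.00115 and 0.000483). The KO chow call was lost without KO chow 2, where the value was 0.65. Without all 4 libraries high in Dbp the value was 0.59, and both of these fits leave 1 KO chow library.

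Neither subunit of the platelet fibrinogen receptor was called against WT chow. Itga2b, alpha IIb, lay at 3.11 to 4.86 CPM in WT chow, 3.13 to 4.83 in WT CDAHFD, 5.30 to 5.31 in KO chow and 3.42 to 4.36 in KO CDAHFD. Itgb3, beta 3, gave 4.0, 4.94, 3.40 and 5.46 CPM in WT chow, 5.06, 3.98 and 4.17 in WT CDAHFD, 5.52 and 7.03 in KO chow and 3.49, 2.97 and 3.59 in KO CDAHFD. Both KO chow libraries were above every other library, and the KO CDAHFD libraries were the lowest group. The difference between KO CDAHFD and KO chow was -0.91 ± 0.22 (adjusted p = 0.0329) and was lost without WT CDAHFD 2 or 3, either KO chow library or any KO CDAHFD library, with values from -1.05 to -0.72, and under library size scaling (-0.69). Of 6 platelet markers 3 passed the filter, 1 of which was higher in each comparison with WT chow. Gp1bb was at 0 in every library. Log2 fold changes of the 3 tested ran from -0.23 to 2.21 for KO chow (median -0.159). For WT CDAHFD they ran from -0.963 to 3.04 (median -0.838), and for KO CDAHFD from 0.158 to 2.96 (median 0.415). The sum of all 6 was 0.871 to 2.21 CPM in WT chow and 4.70 to 5.30 in WT CDAHFD. For KO chow it was 3.08 to 3.18, and for KO CDAHFD 4.48 to 6.10. Most counts in this sum were those of Pf4 (1417, beside 143 for Ppbp and 136 for Gp1ba). The sum therefore does not describe the markers as a class.

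**Figure D3:**
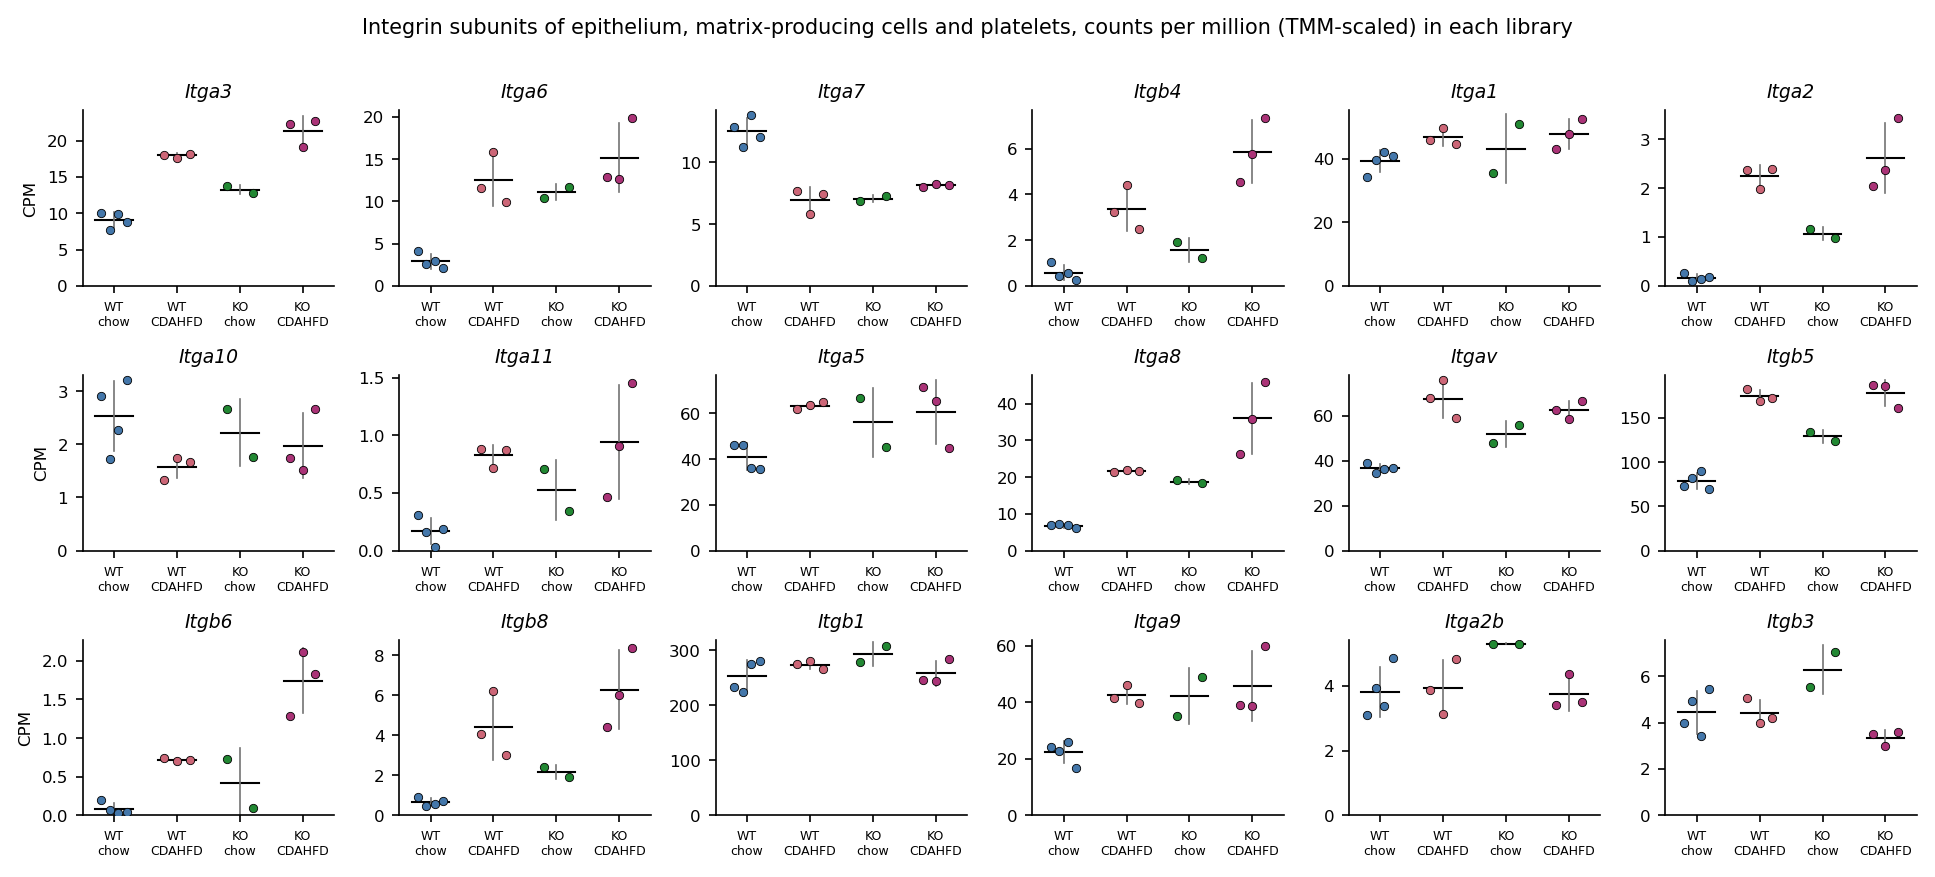
CPM (y axis, linear from 0) of the 18 integrin subunits outside the leukocyte class by group (x axis), 1 point per library, with the group mean (horizontal line) and SD (vertical line). Itgb1 overlaps between the groups, at 225 to 281 CPM in WT chow and 244 to 285 in KO CDAHFD, Itga7 is highest in WT chow, and Itgb5 lies at 69.1 to 90.0 in WT chow and 162 to 187 in KO CDAHFD.

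Matrix ligands of these receptors changed in both directions. Of 12 listed (Fn1, Vtn, Tnc, Spp1, Npnt, Thbs1, Postn, Fbn1, Fbln5, Egfl6, Mfge8 and Tgfb1), 9 were higher and 2 lower in each comparison with WT chow. The 2 that were lower, named here after their values were seen, were fibronectin (Fn1) and vitronectin (Vtn), plasma proteins that hepatocytes secrete. The largest changes were those of Tnc, tenascin C, with 4.08 ± 0.56 for KO chow, 4.78 ± 0.53 for WT CDAHFD and 4.94 ± 0.54 for KO CDAHFD (adjusted p = 0.000105, 1.06e-05 and 7.55e-06), and Thbs1, thrombospondin 1, with 3.36 ± 0.33 for KO chow, 4.24 ± 0.31 for WT CDAHFD and 4.04 ± 0.31 for KO CDAHFD (adjusted p = 6.91e-06, 3.33e-07 and 4.58e-07). Spp1, osteopontin, averaged 47.3 ± 9.73 CPM (SD) in WT chow and 681 ± 159 in KO CDAHFD, and changed by 2.05 ± 0.27 for KO chow, 3.16 ± 0.25 for WT CDAHFD and 3.85 ± 0.26 for KO CDAHFD (adjusted p = 6.35e-05, 6.11e-07 and 1.49e-07).

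Most laminin chains rose, and Lama3 fell. Of the 10 chains, KO chow and WT CDAHFD each had 6 higher and 1 lower, and KO CDAHFD had 8 higher and 1 lower, with median log2 fold changes of 0.87, 1.18 and 1.49. Among alpha chains, which carry the integrin-binding end, Lama2 showed the steepest rise. Lama2 encodes alpha 2, the chain of muscle and interstitial laminins. It was counted at 1.67, 1.83, 1.20 and 1.61 CPM in WT chow, 9.94, 10.04 and 12.5 in WT CDAHFD, 7.75 and 8.34 in KO chow and 12.4, 12.4 and 22.2 in KO CDAHFD. WT chow lay far below the rest, and KO CDAHFD 3 was the highest library. Lama2 rose by 2.35 ± 0.25 for KO chow, 2.78 ± 0.23 for WT CDAHFD and 3.31 ± 0.23 for KO CDAHFD (adjusted p = 1.2e-05, 7.95e-07 and 1.96e-07). Lama5 (chr2:180176373-180225859, minus strand) encodes alpha 5 of laminin 511, the chain of epithelial and vascular basement membranes. Its libraries stood at 5.90, 3.49, 5.47 and 3.44 CPM in WT chow, 12.1, 12.7 and 11 in WT CDAHFD, 7.04 and 9.68 in KO chow and 18.7, 17.9 and 28.7 in KO CDAHFD. The 4 groups did not overlap, in the order WT chow, KO chow, WT CDAHFD and KO CDAHFD. The rises were 0.87 ± 0.25 for KO chow, 1.38 ± 0.23 for WT CDAHFD and 2.25 ± 0.23 for KO CDAHFD (adjusted p = 0.0161, 0.000247 and 4.2e-06), and the KO chow call was lost without KO chow 2 (0.62, adjusted p = 0.161) and without the 4 libraries high in Dbp (0.60, adjusted p = 0.119).

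Lama3, the alpha 3 chain of epithelial laminins, was the laminin chain that fell. It was measured at 11.7, 16.9, 13.8 and 15.8 CPM in WT chow, 4.36, 5.67 and 3.67 in WT CDAHFD, 2.39 and 2.96 in KO chow and 3.32, 3.10 and 3.54 in KO CDAHFD. All 8 libraries outside WT chow lay below the lowest WT chow library, and both KO chow libraries lay below every other. The log2 fold changes were -2.44 ± 0.23 for KO chow, -1.67 ± 0.18 for WT CDAHFD and -2.13 ± 0.19 for KO CDAHFD (adjusted p = 4.78e-06, 9.81e-06 and 1.44e-06). Under library size scaling it was still lower and called in all 3 comparisons, at -2.03, -1.10 and -1.51. Lama4, the vascular alpha 4 chain, was read at 5.36, 4.50, 6.14 and 5.14 CPM in WT chow, 6.41, 7.11 and 6.03 in WT CDAHFD, 5.93 and 9.85 in KO chow and 9.53, 8.42 and 13.9 in KO CDAHFD. Only the KO CDAHFD libraries lay wholly above WT chow, and only that difference was called (1.01 ± 0.21, adjusted p = 0.00136), beside 0.58 ± 0.24 in KO chow and 0.30 ± 0.21 in WT CDAHFD. Lama1, the embryonic alpha 1 chain, ranged over 3.85 to 7.71 CPM in WT chow, 5.34 to 7.52 in WT CDAHFD, 4.38 to 8.49 in KO chow and 3.33 to 5.59 in KO CDAHFD and was called nowhere.

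Of the beta chains, Lamb1 is the widely expressed one. Its level was 9.32, 10.01, 10.2 and 7.38 CPM in WT chow, 30.9, 32.1 and 32.2 in WT CDAHFD, 28.3 and 31.2 in KO chow and 36.1, 37.7 and 39.2 in KO CDAHFD. Replicates of each group were close, and the rises of 1.69 ± 0.12 for KO chow, 1.78 ± 0.11 for WT CDAHFD and 2.03 ± 0.11 for KO CDAHFD had small errors (adjusted p = 7.22e-07, 1.06e-07 and 4.02e-08). Lamb2, the beta 2 chain of vascular and neuromuscular laminins, gave 7.84, 5.70, 6.77 and 3.67 CPM in WT chow, 13.3, 14.2 and 10.8 in WT CDAHFD, 11.3 and 10.6 in KO chow and 16.2, 15.7 and 25.7 in KO CDAHFD. It rose by 0.87 ± 0.26 for KO chow, 1.08 ± 0.23 for WT CDAHFD and 1.67 ± 0.24 for KO CDAHFD (adjusted p = 0.019, 0.00197 and 6.76e-05), and the KO chow call was lost without KO chow 1 (0.84) or KO chow 2 (0.92). Lamb3, the beta 3 chain of epithelial laminins, stood at 4.12, 6.33, 7.57 and 6.15 CPM in WT chow, 6.02, 7.24 and 5.59 in WT CDAHFD, 6.93 and 7.78 in KO chow and 9.75, 9.17 and 10.3 in KO CDAHFD. It was called in KO CDAHFD only (0.69 ± 0.18, adjusted p = 0.00683), the group that lay above all other libraries, beside 0.28 ± 0.21 in KO chow and 0.06 ± 0.18 in WT CDAHFD.

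Lamc1 and Lamc3 were higher in each comparison with WT chow. Lamc1, the gamma 1 chain of most laminins, was counted at 19.8, 15.8, 21 and 18.3 CPM in WT chow, 42.1, 48.0 and 45.3 in WT CDAHFD, 37.9 and 49.2 in KO chow and 42.4, 41.5 and 54.9 in KO CDAHFD. Its rises of 1.22 ± 0.15 for KO chow, 1.27 ± 0.14 for WT CDAHFD and 1.30 ± 0.14 for KO CDAHFD were nearly equal in size (adjusted p = 4.62e-05, 8.09e-06 and 5.91e-06). Lamc3, the gamma 3 chain, was found at 2.80, 1.48, 1.90 and 1.47 CPM in WT chow, 7.99, 7.79 and 6.38 in WT CDAHFD, 3.13 and 4.07 in KO chow and 10.8, 13.3 and 18.6 in KO CDAHFD. It stepped up without overlap from WT chow to KO chow, then WT CDAHFD and last KO CDAHFD, with changes of 0.92 ± 0.28 for KO chow, 1.95 ± 0.25 for WT CDAHFD and 2.90 ± 0.25 for KO CDAHFD (adjusted p = 0.0202, 3.09e-05 and 1.02e-06). Its KO chow call was lost without KO chow 2 (0.71), WT chow 2 (0.82) or WT chow 4 (0.82), and without the 4 libraries high in Dbp (0.57, adjusted p = 0.245).

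**Figure D4:**
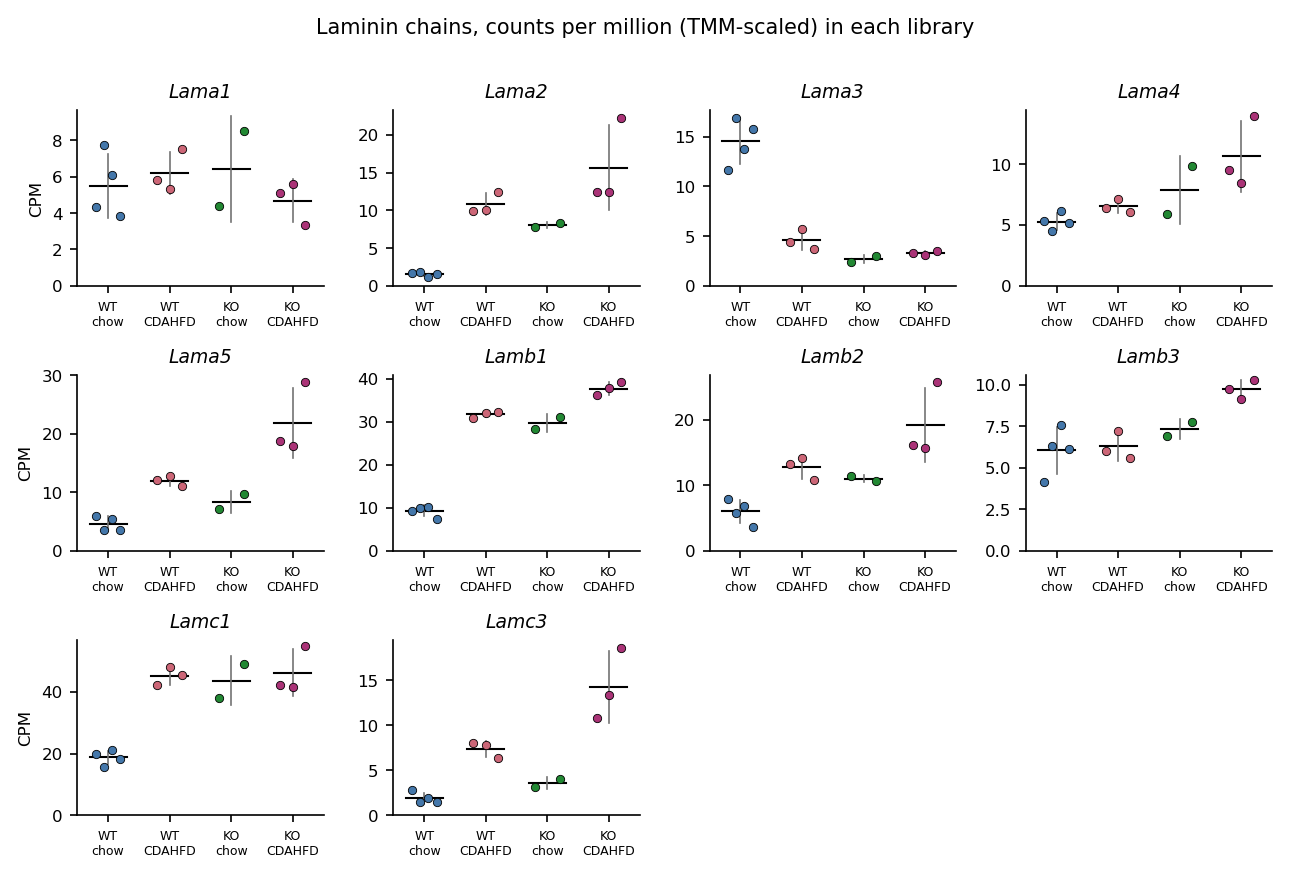
CPM (y axis, linear from 0) of the 10 laminin chains by group (x axis), 1 point per library, with the group mean (horizontal line) and SD (vertical line). Lama3 is highest in WT chow, at 11.7 to 16.9 CPM in WT chow and 2.39 to 2.96 in KO chow, while Lamb1 lies at 7.38 to 10.2 in WT chow and 28.3 to 31.2 in KO chow.

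Some markers of other liver cell types moved as well. The 5 cholangiocyte markers (Krt19, Krt7, Epcam, Sox9 and Cldn4) summed to 6.94 to 20.6 CPM in WT chow, 47.2 to 57.6 in WT CDAHFD, 26.0 to 38.5 in KO chow and 73.6 to 92.0 in KO CDAHFD, with 4 higher in KO chow and 5 higher in each CDAHFD group. The 8 stellate cell and fibroblast markers (5, 5 and 6 higher) summed to 232 to 332 CPM in WT chow, 1405 to 1483 in WT CDAHFD, 1211 to 1341 in KO chow and 1506 to 2014 in KO CDAHFD. KO CDAHFD 3 was the highest library in that sum, as it was for Lama2, Lama5, Lamb2 and Lamc3. The 6 endothelial markers (1 higher in KO chow, 3 lower in each CDAHFD group) summed to 178 to 272 CPM in WT chow, 121 to 170.1 in WT CDAHFD, 169 to 249.7 in KO chow and 121 to 214 in KO CDAHFD. The 4 smooth muscle markers (1 higher, in KO CDAHFD) summed to 1.61 to 30.5 CPM in WT chow, 3.34 to 5.86 in WT CDAHFD, 5.24 to 13.1 in KO chow and 2.33 to 15.9 in KO CDAHFD, and the 4 mesothelial markers (1 higher in each CDAHFD group) to 1.60 to 5.04 CPM in WT chow, 3.24 to 9.29 in WT CDAHFD, 1.70 to 6.20 in KO chow and 3.32 to 3.66 in KO CDAHFD. Of 6 hepatocyte markers 5 were matched, of which 4 were lower in KO chow and 5 in each CDAHFD group, with sums of 81768 to 98118 CPM in WT chow, 44138 to 53547 in WT CDAHFD, 69456 to 80107 in KO chow and 41581 to 55355 in KO CDAHFD. The stellate and fibroblast sum was led by Col3a1, Dcn and Col1a1 (214555, 162650 and 88528 counts, beside 42266 for Reln). Alb led the hepatocyte sum (22009830 counts, beside 2701648 for Apoa1). Both sums therefore describe mainly these genes. The part of these marker shifts in the changes of integrin and laminin genes was not tested.

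The make-up of each subunit family within a library also differed between groups, a measure that does not depend on scaling. On a scale of CPM per kilobase of exon, Itgb1 stood at 62.3 ± 7.0 (SD) in WT chow, ahead of Itgb5 at 22.1 ± 2.62 and Itgb2 at 3.22 ± 0.945. Itgb1 made up 69.2% ± 3.55 (SD) of the 9 beta subunits in WT chow, 40.5% ± 1.48 in WT CDAHFD, 56.9% ± 1.52 in KO chow, and 40.5% ± 2.11 for the KO CDAHFD group. Itgb2 went from 3.59% ± 1.05 in WT chow to 27.4% ± 2.21, 11.4% ± 1.76 and 24.4% ± 1.97 in the same order. Itgb5, second throughout, made up 29.6% ± 1.33 in WT CDAHFD, close to Itgb2. Of the laminin alpha chains, Lama3 made up 47.3% ± 5.95 in WT chow, 12.8% ± 2.66 in WT CDAHFD, 9.07% ± 1.12 in KO chow, and 6.95% ± 1.03 for the KO CDAHFD group. Lama5 went from 14.2% ± 4.68 to 31.6% ± 2.40, 26.5% ± 1.31 and 41.8% ± 2.08, and Lama2 from 3.40% ± 0.639 to 19.95% ± 2.54, 18.2% ± 4.0 and 20.7% ± 2.7. The leading alpha chain was Lama3 in every WT chow library, Lama1 in KO chow 2 and Lama5 in the 7 remaining libraries. Lamc3 made up 12% ± 2.78 of the summed Lamc1 and Lamc3 level per kilobase in WT chow, 18.2% ± 2.22 in WT CDAHFD, 10.1% ± 0.0313 in KO chow, and 29.2% ± 3.13 for the KO CDAHFD group. An exact two-sided permutation test cannot go below 0.0571 for 4 libraries against 3, 0.133 for 4 against 2 and 0.2 for 3 against 2, so the shares are given as a description.

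**Figure D5:**
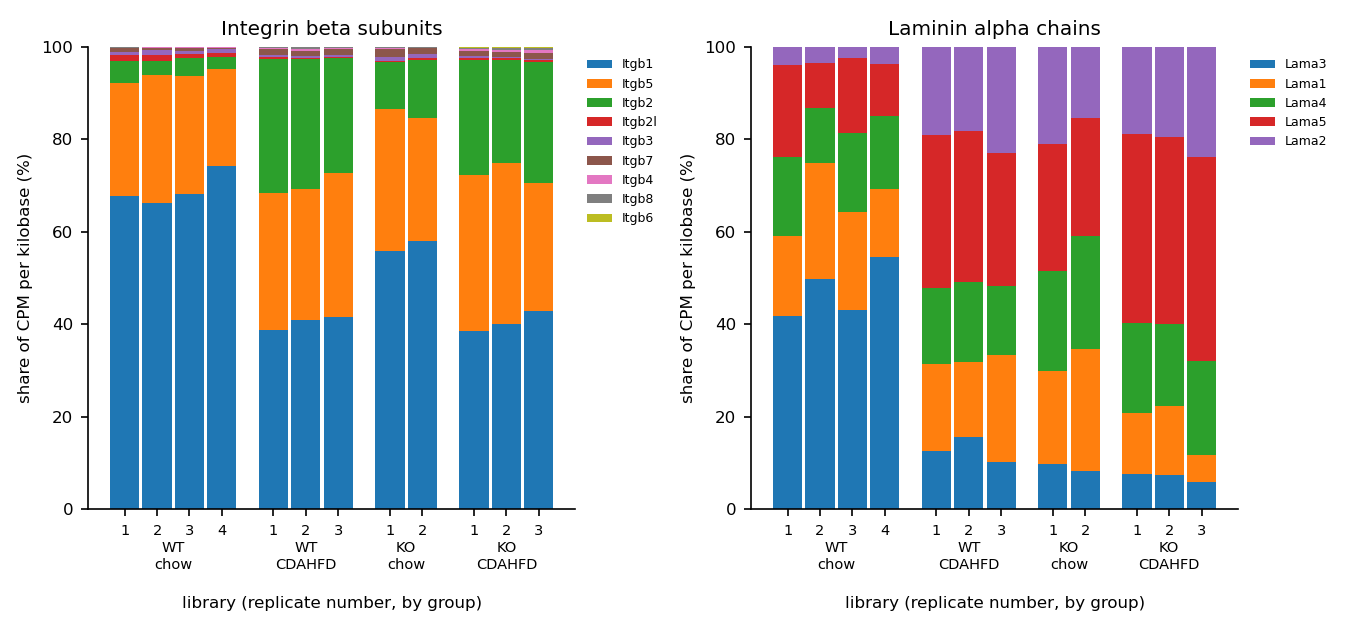
Share (y axis, percent) of each integrin beta subunit (left) and laminin alpha chain (right) in the CPM per kilobase of its family, 1 bar per library, grouped as WT chow (4), WT CDAHFD (3), KO chow (2) and KO CDAHFD (3). The Itgb1 share is 66.3 to 74.3% in WT chow and 38.6 to 42.8% in KO CDAHFD, and the Lama3 share is 41.8 to 54.5% in WT chow and 5.77 to 7.67% in KO CDAHFD.

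Genotype was then compared on the CDAHFD alone. None of the 36 genes differed between KO CDAHFD and WT CDAHFD by edgeR's test, where 0.357% of all genes tested were called (0.0864% higher and 0.271% lower). At an unadjusted p under 0.05 there were 11 (beside 8.77% of all genes), and DESeq2 called 3, beside 1.41% of all genes: Itga8, Lama5 and Lamc3. All 3 were higher in KO CDAHFD, by 0.73 ± 0.16, 0.87 ± 0.24 and 0.95 ± 0.25 on the log2 scale (edgeR adjusted p = 0.109, 0.215 and 0.193), and in each the libraries of the groups did not overlap. The libraries did not overlap for 15 of the 36, beside 20.8% of all genes. The myeloid pair gave 0.04 ± 0.27 for Itgam and -0.25 ± 0.21 for Itgb2 (adjusted p = 0.981 and 0.786). A p above the threshold does not show that the groups were alike.

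The effect of the diet in KO mice was read from KO CDAHFD against KO chow. Of the 36 genes, 10 were higher and 1 was lower in KO CDAHFD than in KO chow, against 6.19% of all genes called (3.76% higher and 2.44% lower). The libraries of the groups did not overlap for 22 of the 36, beside 39.1% of all genes. The 10 were Itgam, Itgb2, Itga2, Itga3, Itgb4, Itga8, Itgb8, Lama2, Lama5 and Lamc3, and the 1 that was lower was Itgb3. Log2 fold changes among the 10 ran from 0.69 ± 0.14 for Itga3 (adjusted p = 0.0157) to 1.98 ± 0.30 for Lamc3 (adjusted p = 0.00349), with 1.91 ± 0.41 for Itgb4. These calls rested on 2 KO chow libraries. Without KO chow 1 none of the 11 was called, and Itgb6, named after its value was seen, was called in their place. Without KO chow 2 there were 3 (Itgb2, Lama5 and Lamc3), and the fit without the 4 libraries high in Dbp called the same 3. Without KO CDAHFD 1 there were 7 and without KO CDAHFD 3 there were 6. The shares of all genes called in these fits were 1.28%, 1.67%, 3.36%, 2.65% and 2.94%. Lama2 stood at 0.96 ± 0.26 and, without KO CDAHFD 3, at 0.63. Read against WT CDAHFD, KO chow was lower for 2 genes, Itgb2 (-1.66 ± 0.25, adjusted p = 0.00243) and Itgam (-1.71 ± 0.33, adjusted p = 0.0106), where 6.12% of all genes were called (2.71% higher and 3.42% lower). The groups were apart for 20 of the 36, beside 48.6% of all genes. Itgam was also lost without KO chow 2, at a log2 fold change of -1.56 (adjusted p = 0.0674). The count was 0 without KO chow 1 (1.43% of all genes), 6 without WT chow 1 (8.46%), 5 without WT chow 4 (6.33%), 4 without KO CDAHFD 3 (7.4%), 5 without the 4 libraries high in Dbp (15%) and 12 by DESeq2 (13.2%), all lower in KO chow.

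The interaction of genotype and diet, the diet effect in KO mice minus that in WT mice, was called for 16 of the 36 genes, where 23.1% of all genes were called (8.63% positive and 14.5% negative). It was negative for 14 and positive for 2. With library size alone as the scaling, which moved the median of all genes to -0.34, it was negative for 21 and positive for 2, where 28.5% of all genes were called. Among leukocyte subunits Itgam gave -2.95 ± 0.44 (adjusted p = 0.000428): its diet effect was 4.71 in WT mice and 1.75 in KO mice. Itgb2 gave -2.42 ± 0.31 (adjusted p = 0.000132), with diet effects of 3.82 and 1.41. Among matrix receptors the largest was Itga2 at -2.44 ± 0.46 (adjusted p = 0.00217), and among laminins Lama2 at -1.82 ± 0.34 and Lamb1 at -1.44 ± 0.17 (adjusted p = 0.00181 and 8.57e-05). The positive ones were those of Lama3 at 1.98 ± 0.29 and Itga7 at 1.05 ± 0.21 (adjusted p = 0.000363 and 0.00287), the genes that were lower in the other groups than in WT chow. The KO chow level enters both the interaction and the KO chow comparison, and it comes from 2 libraries. Lama5 and Lamc3 had interactions of -0.0017 ± 0.30 and 0.03 ± 0.39 (adjusted p = 0.997 and 0.966).

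Other basement membrane components and the proteins that connect integrins to the cytoskeleton moved less uniformly. Of 12 basement membrane partners, KO chow had 5 higher and 2 lower, WT CDAHFD 6 higher and 4 lower, and KO CDAHFD 6 higher and 2 lower, with medians of 0.413, 0.313 and 0.386. For this list and the next, the background is all genes tested. Of these, 22% were higher and 17% lower in KO chow, 26.1% and 25% in WT CDAHFD, and 26.9% and 25.4% in KO CDAHFD. Their medians were 0.00217, -0.0478 and -0.0397. Nid1, nidogen 1, which links laminin to collagen IV, rose by 2.38 ± 0.17 for KO chow, 2.58 ± 0.15 for WT CDAHFD and 2.56 ± 0.15 for KO CDAHFD (adjusted p = 5.21e-07, 7.26e-08 and 7.28e-08). Col4a1 and Col4a2, the collagen IV chains, rose by 2.16 ± 0.20 for KO chow, 2.30 ± 0.19 for WT CDAHFD and 2.43 ± 0.19 for KO CDAHFD and by 1.89 ± 0.20 for KO chow, 2.09 ± 0.19 for WT CDAHFD and 2.46 ± 0.19 for KO CDAHFD. These 2 genes overlap by 22 exon bases on opposite strands. Col18a1 and Sdc4, singled out after their values were seen, were lower in all 3 comparisons. Of 29 genes of the adhesion machinery, 10 were higher and 8 lower in KO chow, 13 and 4 in WT CDAHFD, and 13 and 7 in KO CDAHFD, with medians of 0.154, 0.223 and 0.0605. The 3 with the largest changes were Fermt1, the epithelial kindlin (2.46 ± 0.32 for KO chow, 3.29 ± 0.29 for WT CDAHFD and 3.77 ± 0.29 for KO CDAHFD), Parvg, the parvin of blood cells (2.44 ± 0.38 for KO chow, 2.79 ± 0.35 for WT CDAHFD and 2.73 ± 0.35 for KO CDAHFD), and Apbb1ip, the leukocyte adaptor RIAM (2.04 ± 0.24 for KO chow, 2.43 ± 0.22 for WT CDAHFD and 2.32 ± 0.22 for KO CDAHFD). Fermt2, the widely expressed kindlin, Lims2, Bcar1 and Rasgrp2, likewise singled out afterwards, were lower in all 3. The call for Ilk, lower in KO chow, rested on 304 counts, beside 21480 for Taf10, which overlaps it on the opposite strand.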

How the data were processed

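Liver biopsies of 12 mice were sequenced as non-directional poly-A libraries on an Illumina NovaSeq. Per the labels and the study's methods, the authors checked reads with FastQC 0.11.5, aligned them to GRCm38 with STAR 2.7.3a and deposited raw counts per gene; the counting program and annotation release are not given in the sources used here. Gene identifiers were matched to GENCODE M21 (GRCm38), which named 52081 of 55357 identifiers. Counts were filtered with filterByExpr, scaled by TMM and tested with edgeR 4.0.16 (quasi-likelihood, 1 mean per group over 12 libraries) in R 4.3.3, with Benjamini-Hochberg adjustment over 17358 genes. DESeq2 1.42.0, other scalings, no filter, a replicate block, a clock gene score and leaving out libraries were the alternatives. The script was tested on simulated data. Genes and lists were chosen with earlier results of these data known. All 36 genes described are named, with values per library for those called in a pairwise comparison and averaging at least 50 counts, and from each pathway list the 3 with the largest change among called genes with separate libraries. Each library was taken as 1 mouse, so p-values measure the spread between these libraries. Levels per kilobase use exon length. Promoters came from RefSeq. A gene that met the rule for the set and a cell type marker are not reported here. The study describes 3 mice per group, whereas KO chow has 2 libraries here and WT chow 4. Its histology list holds more KO chow than KO CDAHFD mice, the reverse of these libraries. Groups follow the labels, and the diet labels of the KO libraries were not checked, so the KO chow and KO CDAHFD values hold as far as these labels do.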

Additional observations from a re-analysis of the deposited data

Results flagged for a closer look

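In 36 groups of WT chow libraries, 1 per gene, tested for a value far from the other 3, Itgae gave 1: WT chow 1 held 1.51 CPM, with a gap of 0.832 of the group's range. Chance alone flags about 1 in 20 such groups.

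The diet effect differed between genotypes, by edgeR's test of the interaction (the effect in KO mice minus that in WT mice), for 16 genes. Among leukocyte subunits the log2 differences were -2.95 for Itgam, -2.42 for Itgb2, -1.85 for Itgb7, -1.46 for Itgal and -1.45 for Itga4. The value of Itga4 passed the threshold only with KO chow 2 in the fit; without it, it was -1.0 (adjusted p = 0.111). Among the other integrin subunits they were -2.44 for Itga2, -1.64 for Itga6, -0.69 for Itgb5, -0.89 for Itgb3, -0.74 for Itga8 and -0.62 for Itgav, with 1.05 for Itga7. The calls of Itga8 and Itgb3 were lost on leaving out 11 and 9 of the 12 libraries, 1 at a time (values -0.95 to -0.56 and -1.06 to -0.71), and that of Itgav without WT CDAHFD 2 (-0.52) or KO chow 2 (-0.51). Among laminin chains they were -1.82 for Lama2, -1.44 for Lamb1 and -1.18 for Lamc1, with 1.98 for Lama3. Every interaction includes the KO chow mean, which rests on 2 libraries.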

How the results depend on the processing

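The 108 called values of single genes were recomputed under each alternative that could give them, and no called value changed its sign. Of 108, 108 stayed called with DESeq2 size factors, 107 with DESeq2 or with a clock gene score as covariate, 106 without the filter, 103 with library size only and 92 without the 4 libraries high in Dbp, an alternative chosen after seeing the data. Of 90, 82 stayed called with only the compared groups in the fit. Among fits that left out 1 library, losses were largest without KO chow 1 and without KO chow 2. Each of these 2 fits leaves 1 library in that group. In the fit of the 4 libraries high in Dbp alone, KO chow and KO CDAHFD hold 1 library each, so its calls are not counted here.

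Counts of called genes moved as follows. For KO CDAHFD against WT CDAHFD the count of 0 became 3 without the filter and 3 with DESeq2, and ranged from 0 to 1 on leaving out 1 library. For KO CDAHFD against KO chow the count of 11 became 6 with only these groups and 3 without the libraries high in Dbp, and ranged from 1 to 13 on leaving out 1 library. For KO chow against WT CDAHFD the count of 2 became 9 with library size only, 5 without the filter, 12 with DESeq2, 8 with only these groups, 9 with the clock score and 5 without the libraries high in Dbp, and ranged from 0 to 6 on leaving out 1 library. Counts against WT chow ranged over 20 to 27, 25 to 28 and 26 to 29 on leaving out 1 library, and the interaction over 13 to 18. The shares of all genes called moved too. For KO CDAHFD against WT CDAHFD the share went from 0.357% to 0.714% without the filter and 1.41% with DESeq2. For KO CDAHFD against KO chow it went from 6.19% to 3.52% with only these groups. For KO chow against WT CDAHFD it went from 6.12% to 7.3% with library size only, 4.64% without the filter and 13.2% with DESeq2. In that comparison it was 11.8% with only these groups and 14.4% with the clock score. The cause of these moves was not tested.

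Among uncalled values, Itga1 in KO chow against WT chow was -0.0602 without the libraries high in Dbp and ranged from -0.15 to 0.39 on leaving out 1 library. Itgb1 in KO CDAHFD against WT chow ranged from -0.0475 to 0.11, and Itgam in KO CDAHFD against WT CDAHFD from -0.11 to 0.16.

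A replicate block gave counts of 20, 27 and 27 against WT chow, 0, 7 and 2 in the other pairwise comparisons and 13 for the interaction, and 12 of 108 called values were lost. The shares of all genes called in this fit were, in the same order, 31.3%, 44.9%, 46.3%, 0.34%, 3.69%, 4.21% and 18.1%. Libraries with the same number correlated between -0.242 and 0.266 in their deviations, and those with different numbers between -0.266 and 0.245. The numbers were therefore not taken to pair them. These extremes involve the 2 KO chow libraries, whose deviations from their mean mirror each other by construction. Itgad, Itgae, Itgb6 and Itga11 average under 50 counts, which limits their values.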
